A study of Mus musculus with 31 samples.

Results

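DN3 thymocytes are T cell progenitors that carry neither CD4 nor CD8 and are at the stage where the T cell receptor beta chain is rearranged. Here 4 of the series' 31 RNA-seq libraries were compared: 2 of floxed DN3 cells and 2 of control DN3 cells, all taken on day 7 of culture, with genes read on chromosomes 1 to 19 only. The floxed cells carried a tamoxifen-inducible Cre (ROSA26-CreERT2), a reporter that Cre switches on (ROSA26-stop-tdTomato) and floxed alleles of both E2A (E2Af/f) and HEB (HEBf/f). The control cells carried the same Cre and reporter without the floxed alleles. Both came from C57BL/6 mice and were grown on OP9-DL1 stromal cells, which display a Notch ligand, with stem cell factor, IL-7 and IL-2. The labels name the treatment as 4-OHT (4-hydroxytamoxifen), which is called tamoxifen below. It was added to both on day 4, so both carried active Cre. The Cre is expressed from the ROSA26 locus and is not restricted to a cell type, and tdTomato-positive cells were sorted on days 5 and 7. Libraries of day 4, before tamoxifen, were not described as sorted. The labels do not say whether the libraries a and b (floxed) and c and d (control) are separate animals or separate cultures. Every p rests on the spread between libraries of a group, estimated from all 24 culture libraries (12 groups of 2). That spread may be technical.

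E2A (gene Tcf3) and HEB (gene Tcf12) are E proteins, basic helix-loop-helix transcription factors that bind the E-box sequence CANNTG as dimers and drive T cell commitment, Rag expression and receptor gene rearrangement in the thymus. Id proteins pair with E proteins and keep them off DNA. Group 2 innate lymphoid cells (ILC2) are lymphocytes without a rearranged antigen receptor that depend on GATA3 and ROR-alpha and make type 2 cytokines, and the culture conditions are named after them in the labels.

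The 4 libraries held 5908459 and 7387377 counts (floxed a and b) and 7066920 and 9671593 counts (control c and d), and levels are given below as CPM (counts per 1000000 counts, scaled with the TMM factors of edgeR). Of 44360 genes on chromosomes 1 to 19, 14570 passed the filter on low counts and were tested. Within a genotype the libraries differed beyond sampling noise, by a chi-square per degree of freedom of 6.98 in floxed and 3.65 in control cells. Markers of DN3 cells were present in the controls, where Rag1, Dntt, Ptcra, Il2ra, Cd3e and Notch1 all had at least 26.4 CPM in both libraries. Rag2, a further marker, was below that level in both. Control cultures of the earlier DN1 stage also had Rag1 and Ptcra counts on day 7 (1100 and 114). These levels after 7 days of culture therefore do not identify the starting cells. Sex went with genotype: Xist had 1884 and 1686 CPM in floxed against 7.36 and 4.55 CPM in control libraries, and genes of the Y chromosome summed to 0.508 and 1.76 in floxed against 159.8 and 181 in control libraries (both without TMM scaling). Sex and genotype cannot be told apart in these data, and genes of the sex chromosomes are left out of every count.

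Both targeted genes were lower in floxed cells. Tcf12 had 169.7 and 151 CPM in floxed against 508 and 505 CPM in control libraries, a log2 change of -1.66 ± 0.10 (standard error, adjusted p = 5.05e-09). Tcf3 had 32.9 and 15.04 CPM in floxed against 93.8 and 100.1 CPM in control libraries, a log2 change of -2.03 ± 0.38 (adjusted p = 0.000475). No floxed library overlapped a control library for either gene, and library b was the lower of the floxed pair for both. The counts cover the whole gene, and the sources used here do not give the exons that Cre removes, so reads left from the targeted genes are not a measure of undeleted cells. On day 4 the differences were small: Tcf12 had 449.6 and 471 CPM in floxed against 499 and 468 CPM in control libraries.

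Related factors and inhibitors changed as well. Tcf4, which encodes the remaining E protein E2-2, fell to 62.6 and 51.5 CPM in floxed against 112 and 112 CPM in control libraries. Id3, an inhibitor of E proteins and itself a known E protein target, fell to 78.1 and 61.4 CPM in floxed against 336 and 289 CPM in control libraries. Lmo4, a LIM-only adaptor protein, rose to 495 and 759 CPM in floxed against 123 and 128 CPM in control libraries. Id2, the inhibitor required by innate lymphoid cells, had 295 and 354 CPM in floxed against 212 and 189.5 CPM in control libraries (log2 change 0.69 ± 0.20, adjusted p = 0.0149), and that call was lost without floxed b (log2 0.55, adjusted p = 0.15) or without control d (log2 0.61, adjusted p = 0.132). Of the 12 tested genes of E proteins, Id proteins and their partners, 2 rose and 5 fell. Of all tested genes 13% rose and 12% fell. The 5 include the 2 targeted genes, whose fall was built into the design. Another of them, Id1, lost its call with any DN3 library of day 7 left out (log2 -0.79 to -0.66), or without the day 4 libraries.

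Across chromosomes 1 to 19, 1890 genes were higher and 1750 lower in floxed cells at an adjusted p under 0.05 by edgeR's quasi-likelihood test. These are 13% and 12% of the genes tested, 25.0% in all, and the median log2 change over all tested genes was -0.01; both shares are the background of the list counts below. Changes of more than 2-fold were called for 788 higher and 790 lower genes, and changes of more than 8-fold for 98 higher and 178 lower genes. The size of the count rests on single libraries. It fell without any 1 of the 4 DN3 libraries of day 7, which leaves 1 library in a group. It rose without floxed library b of the DN1 cultures of day 7, which is outside this comparison but shares the estimate of the spread.

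**Figure D1:**
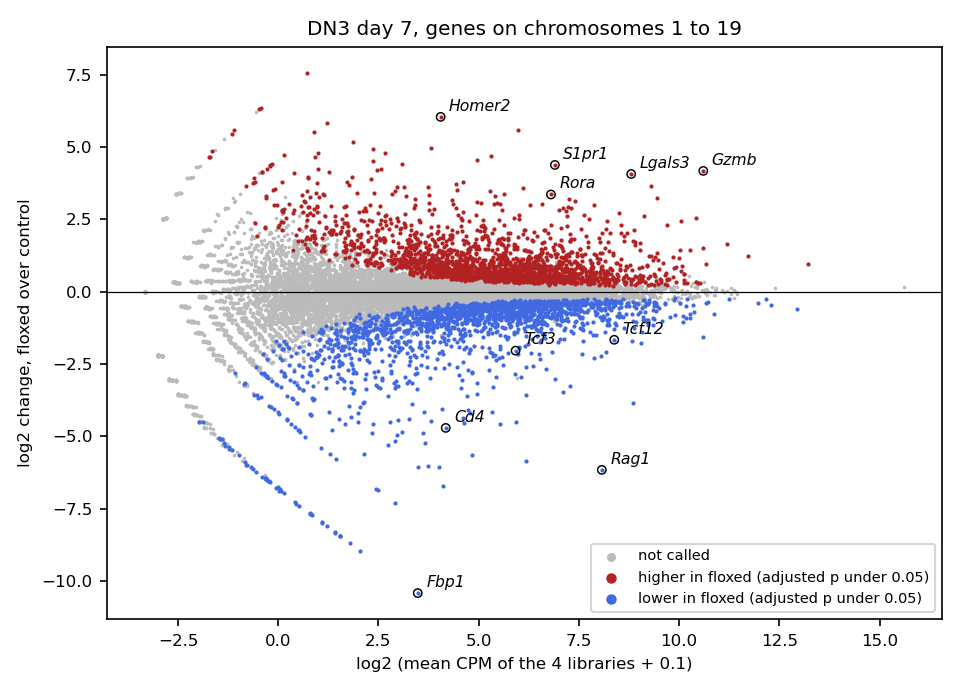
Log2 change in floxed over control DN3 cells on day 7 (vertical axis) against the log2 of the mean CPM of the 4 libraries plus 0.1 (horizontal axis), 1 point per tested gene on chromosomes 1 to 19, with red for the 1890 genes called higher, blue for the 1750 called lower and grey for the rest. Gzmb and Lgals3 lie far to the right at high levels and Rag1 stands far below the axis. For genes at 0 in one group, such as Fbp1, the fitted change depends on the prior count and its size is not interpreted.

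The 4 marker genes of the comparison were separated without overlap. Gzmb (granzyme B, a serine protease of cytotoxic granules; chromosome 14, 56258838 to 56262260, mm10) had 2552 and 3339.5 CPM in floxed against 192 and 134 CPM in control libraries. Its log2 change was 4.18 ± 0.49 (adjusted p = 4.48e-06). Lgals3 (galectin-3, a sugar-binding lectin; chromosome 14, 47367751 to 47386160) had 767 and 920.0 CPM in floxed against 61.0 and 40.1 CPM in control libraries. S1pr1 (the sphingosine-1-phosphate receptor through which lymphocytes leave the thymus; chromosome 3, 115710433 to 115715072) had 202 and 253 CPM in floxed against 13.8 and 8.36 CPM in control libraries. The log2 changes were 4.07 ± 0.52 for Lgals3 and 4.38 ± 0.41 for S1pr1 (adjusted p = 1.14e-05 and 3.29e-07). Rag1 (a subunit of the recombinase that rearranges antigen receptor genes; chromosome 2, 101638282 to 101649501) had 12.9 and 2.67 CPM in floxed against 569 and 491 CPM in control libraries, a log2 change of -6.15 ± 0.47 (adjusted p = 4.25e-08). For all 4 genes the floxed libraries lay on one side of both control libraries by more than 10-fold in means, and library b lay farther from the controls than library a. In bulk libraries, fewer cells that carry a transcript and less of it per cell cannot be told apart.

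The 250 bases before the RefSeq transcription start of 3 of these markers, and of the pre-T cell receptor gene Ptcra, are given because E proteins bind E-boxes; capitals mark each match to CANNTG, which reads the same on both strands (build GRCm38.p6, written 5′ to 3′ on the gene's own strand).
Gzmb, chr14:56262335-56262584, minus strand: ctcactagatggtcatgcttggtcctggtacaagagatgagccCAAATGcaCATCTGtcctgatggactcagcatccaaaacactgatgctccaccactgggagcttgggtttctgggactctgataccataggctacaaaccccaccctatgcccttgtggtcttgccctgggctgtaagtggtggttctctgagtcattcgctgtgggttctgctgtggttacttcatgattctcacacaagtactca
Lgals3, chr14:47373610-47373859, plus strand: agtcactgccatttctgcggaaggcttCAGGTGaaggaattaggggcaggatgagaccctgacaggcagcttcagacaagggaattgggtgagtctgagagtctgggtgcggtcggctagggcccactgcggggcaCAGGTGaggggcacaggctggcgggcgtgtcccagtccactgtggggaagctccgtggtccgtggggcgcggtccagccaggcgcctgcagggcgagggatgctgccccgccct
Rag1, chr2:101649533-101649782, minus strand: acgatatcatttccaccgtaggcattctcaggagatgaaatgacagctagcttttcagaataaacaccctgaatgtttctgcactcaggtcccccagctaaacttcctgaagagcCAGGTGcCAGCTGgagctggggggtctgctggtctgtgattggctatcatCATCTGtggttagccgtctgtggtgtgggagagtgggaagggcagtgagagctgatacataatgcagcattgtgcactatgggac
Ptcra, chr17:46763713-46763962, minus strand: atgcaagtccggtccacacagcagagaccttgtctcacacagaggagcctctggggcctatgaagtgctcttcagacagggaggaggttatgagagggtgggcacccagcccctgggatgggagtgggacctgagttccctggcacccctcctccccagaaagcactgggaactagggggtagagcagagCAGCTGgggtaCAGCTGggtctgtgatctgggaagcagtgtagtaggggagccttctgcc
The table of promoters held no entry for S1pr1. For Gzmb and Rag1 the RefSeq start lies upstream of the gene end given above, which is that of the GENCODE annotation. For Lgals3 the printed stretch lies inside the GENCODE span given above, downstream of its start. Distances are counted from the RefSeq start. Rag1 has 3 matches, 135, 128 and 85 bases before the start, and Gzmb has 2, at 207 and 199 bases. Both matches in Lgals3, at 223 and 114 bases, are the form CAGGTG, and both in Ptcra, at 60 and 49 bases, are the form CAGCTG. The shares of promoters with a CANNTG match lay close together: 57.8% of 1914 promoters of higher genes, 56.2% of 1549 promoters of lower genes and 57.6% of 12475 promoters of all tested genes held one. In the same order, CAGCTG was in 12.9%, 12.4% and 12.1% of these promoters, and CACCTG or CAGGTG (one sequence read on its 2 strands) in 16.1%, 16.4% and 15.4%. A match is a string of letters and not a measured binding site.

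Among called genes whose libraries did not overlap and whose higher group averaged at least 20 CPM, the 15 with the largest changes were named in each direction, out of 1350 higher and 1050 lower genes that met these criteria. The order by log2 change among the higher genes was Homer2, Nt5e, Scin, Gdpd3, S1pr1, Gzmb, Lgals3, Cd200r1, Tirap, Myo6, Ppp2r3a, Fos, Deptor, Rab27b and Rora, from 6.04 ± 0.64 down to 3.36 ± 0.38. Homer2, a scaffold protein, had 19.5 and 45.4 CPM in floxed against 0.838 and 0.204 CPM in control libraries. Nt5e, which encodes the adenosine-producing surface enzyme CD73, had 26.1 and 27.8 CPM in floxed against 1.26 and 0.510 CPM in control libraries. Scin, an actin-severing protein, had 65.1 and 87.4 CPM in floxed against 3.63 and 2.34 CPM in control libraries. These 3 genes were close to absent in control cells and clearly present in both floxed libraries.

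Several of the others encode proteins of the cell surface, vesicles and the cytoskeleton. Cd200r1, an inhibitory receptor also found on ILC2, had 41.4 and 50.05 CPM in floxed against 3.07 and 3.47 CPM in control libraries. Myo6, a myosin that moves toward the minus end of actin filaments, had 999 and 1315 CPM in floxed against 116 and 68.7 CPM in control libraries. Rab27b, a GTPase of secretory granules, had 78.7 and 100.4 CPM in floxed against 10.9 and 6.63 CPM in control libraries. Among regulators, Rora, the gene of ROR-alpha, had 175 and 231 CPM in floxed against 23.0 and 16.8 CPM in control libraries, and its libraries did not overlap. Deptor, an inhibitor of mTOR, had 52.0 and 90.3 CPM in floxed against 5.44 and 7.03 CPM in control libraries. Ppp2r3a, a regulatory subunit of protein phosphatase PP2A, had 22.6 and 26.6 CPM in floxed against 1.81 and 2.14 CPM in control libraries. Tirap, a Toll-like receptor adaptor, had 33.2 and 46.3 CPM in floxed against 3.35 and 2.65 CPM in control libraries. Its exons overlap Srpr on the other strand, and the sources used here do not say whether counting used strand. The same limit holds for other genes of this report, among them Rag2 (which overlaps B230118H07Rik), Il17rb (Actr8) and Junb (Prdx2).

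Among the lower genes described here the order was Fbp1, Rag1, Myof, Mpzl2, Dgkeos, Spib, Cd4, Cd8a, Tspan2, Cd8b1, Ptcra, Nrp1, Atp1b1 and Akap12, ending at -4.17 ± 0.27. Fbp1, a gluconeogenic enzyme, had no count in either floxed library and 372 counts in the control libraries together, at least 98.5-fold lower with a floor of 3 counts over the floxed group. Myof, a membrane-repair protein, had 0.348 and 0.562 CPM in floxed against 30.2 and 33.5 CPM in control libraries. Both genes were at a few reads or none in the floxed libraries, where depth limits how far a fold change can be read.

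The coreceptors of the next thymic stages were among them. Cd4 had 1.22 and 1.41 CPM in floxed against 30.3 and 39.1 CPM in control libraries. Cd8a had 3.65 and 3.80 CPM in floxed against 81.1 and 97.5 CPM in control libraries, and Cd8b1 had 4.87 and 5.34 CPM in floxed against 105 and 130.1 CPM in control libraries. For these 3 genes the floxed libraries lay close together and far below the controls. Spib, an Ets-family factor of early thymocytes, had 0.870 and 0.703 CPM in floxed against 22.6 and 24.2 CPM in control libraries. Nrp1 (neuropilin 1) had 3.65 and 0.984 CPM in floxed against 39.2 and 52.6 CPM in control libraries, and Akap12, a scaffold for protein kinases, had 5.05 and 3.51 CPM in floxed against 68.4 and 83.7 CPM in control libraries. The value for Dgkeos cannot be separated from that of Dgke, which it overlaps on the other strand, and Atp1b1 overlaps Nme7. All 30 genes kept their call and direction in the alternative analyses, and their direction with each library left out. They were chosen for large changes in these same libraries, which makes a lost call unlikely, so this says little about how firm they are.

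**Figure D2:**
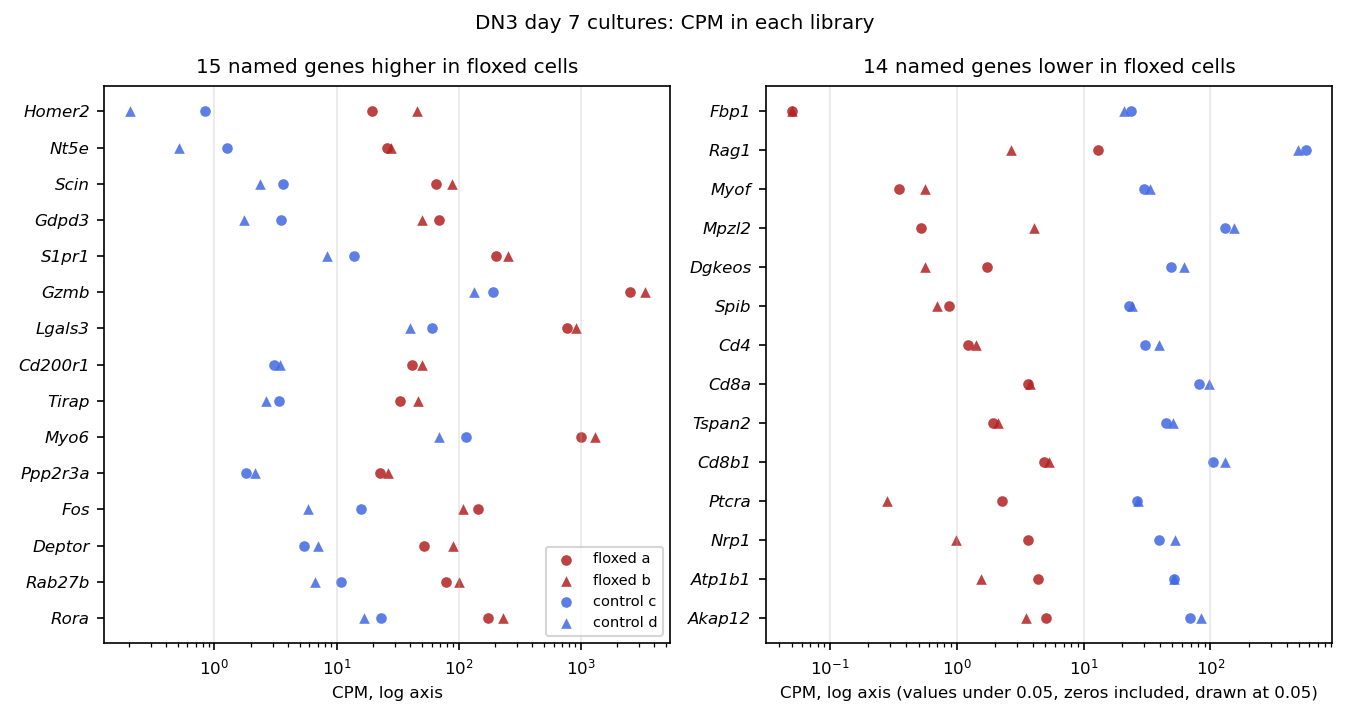
CPM on a log axis in each of the 4 DN3 libraries of day 7 for the 15 named genes that were higher (left) and 14 of the 15 that were lower (right) in floxed cells, with floxed libraries a and b in red and control libraries c and d in blue. No red point overlaps the blue points of its gene, as the naming rule required, and the red pair is widely spread for Rag1, Ptcra and Mpzl2. Values of 0 are drawn at 0.05 CPM.

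Genes of receptor rearrangement and the pre-T cell receptor were mostly lower. Of 8 tested, 6 fell and none rose (12% of all tested genes fell), with a median log2 change of -2.89. The marker Rag1 is one of the 6. Ptcra, the invariant partner of the beta chain, had 2.26 and 0.281 CPM in floxed against 26.4 and 26.7 CPM in control libraries. Dntt, the template-free polymerase of junctions, had 92.7 and 29.0 CPM in floxed against 879 and 848 CPM in control libraries, and Rag2 had 1.91 and 0.703 CPM in floxed against 13.5 and 23.5 CPM in control libraries. The CD3 chains were not equal: Cd3g and Cd3d fell, with log2 changes of -1.94 and -1.24, while Cd3e had 136 and 160.0 CPM in floxed against 174 and 198 CPM in control libraries (log2 -0.33 ± 0.27, adjusted p = 0.427). With the compared groups fitted alone, Cd3e was called lower (log2 -0.34 ± 0.11, adjusted p = 0.0411).

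Of 17 tested receptor signalling genes, 5 rose and 4 fell, against 13% and 12% of all tested genes, with a median log2 change of 0.02. The Src-family kinase Lck fell to 400.4 and 371 CPM in floxed against 729 and 773 CPM in control libraries, while its relative Fyn rose to 163 and 178 CPM in floxed against 76.5 and 72.4 CPM in control libraries. The Tec kinase Txk also rose, by 1.49 ± 0.20 on the log2 scale. Of 14 coreceptor and costimulation genes, 5 rose and 5 fell. The falls were led by Cd4, Cd8a and Cd8b1, and the rises by receptors of activated lymphocytes. Icos had 247 and 358 CPM in floxed against 43.4 and 25.2 CPM in control libraries, and Tnfrsf9 (4-1BB) had 272 and 284 CPM in floxed against 38.7 and 35.7 CPM in control libraries.

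Notch genes changed in both directions. Of 9 tested, 5 rose and 2 fell, with a median log2 change of 0.92. The receptors Notch1 and Notch3 fell: Notch1 had 132 and 112 CPM in floxed against 340.0 and 341 CPM in control libraries, and Notch3 had 22.8 and 6.47 CPM in floxed against 63.7 and 70.4 CPM in control libraries. The receptor Notch2 rose by 1.48 ± 0.25 on the log2 scale. Of the genes known as Notch targets, Dtx1, Hes1 and Nrarp rose, while Notch3 and Ptcra, which are also known as Notch targets, fell. Dtx1 had 385 and 604 CPM in floxed against 113 and 130.0 CPM in control libraries, Hes1 rose by 0.92 ± 0.23 and Nrarp by 1.06 ± 0.21 on the log2 scale.

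Among 20 T lineage transcription factors 9 fell and 4 rose, with a median log2 change of -0.53. Tcf7 (TCF-1), Bcl11b and Ets1, which hold early T cell identity, fell, with log2 changes of -1.16, -0.91 and -1.03. Gfi1, a repressor of the zinc finger family, fell to 36.9 and 23.8 CPM in floxed against 112 and 112 CPM in control libraries. Gata3, which both T cells and ILC2 require, rose to 643 and 692 CPM in floxed against 186 and 142 CPM in control libraries. The 15 tested ILC2 transcription factors, a list that shares Gata3, Tcf7, Bcl11b, Ets1, Gfi1 and Tox with the one above, had 9 that rose and 4 that fell (median log2 1.03). Maf rose to 383 and 454 CPM in floxed against 62.0 and 44.2 CPM in control libraries. Zbtb16 (PLZF), a factor of innate lymphoid precursors, had 54 counts in the floxed and 1 count in the control libraries, a ratio of 68.0 (95% interval 11.7 to 2734, counting error only).

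The ILC2 receptors gave a mixed record. Of 17 tested, 8 rose and 3 fell, with a median log2 change of 0.63. Il2ra, the IL-2 receptor alpha chain, had 1856 and 1734 CPM in floxed against 685 and 627 CPM in control libraries. Il17rb, the IL-25 receptor, had 68.2 and 73.1 CPM in floxed against 23.6 and 21.5 CPM in control libraries, and Tnfrsf18 (GITR) had 709 and 829 CPM in floxed against 203 and 147 CPM in control libraries. Il1rl1, the IL-33 receptor that marks most tissue ILC2, had 0.696 and 1.12 CPM in floxed against 0.558 and 0.408 CPM in control libraries, which is near 1 CPM in all 4 and was not called (adjusted p = 0.58). Il7r fell to 10.6 and 14.1 CPM in floxed against 34.6 and 37.1 CPM in control libraries. Of the type 2 cytokines, Il4 had 6.44 and 11.8 CPM in floxed against 0.698 and 0.510 CPM in control libraries and Il13 had 5.22 and 13.6 CPM in floxed against 0.698 and 1.02 CPM in control libraries; both were called (adjusted p = 0.000282 and 0.0011). Il5 had 8 counts in the floxed and 2 counts in the control libraries, and Areg had 0 and 1; neither was tested.

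Of 14 tested cytotoxic and natural killer (NK) cell genes, 6 rose and none fell, against 13% and 12% of all tested genes. The median log2 change was 1.34. The marker Gzmb is one of the 6. Gzma (granzyme A) had 4417 and 5024 CPM in floxed against 2306 and 1731 CPM in control libraries, so it was high in both genotypes. Nkg7, a granule protein, rose to 223 and 272 CPM in floxed against 66.4 and 58.2 CPM in control libraries, and Il2rb, the shared beta chain of the IL-2 and IL-15 receptors, to 479.6 and 439 CPM in floxed against 165 and 115 CPM in control libraries. Prf1 (perforin) had 6.09 and 12.4 CPM in floxed against 3.63 and 3.16 CPM in control libraries and missed the threshold (adjusted p = 0.0779). That outcome depended on the fit. Prf1 was called higher without the filter (log2 1.48, adjusted p = 0.0212), with the compared groups alone (1.46, 0.0143) and without the day 4 libraries (1.44, 0.0351). Tbx21 had 2.26 and 3.23 CPM in floxed against 1.68 and 2.04 CPM in control libraries (adjusted p = 0.461). Ncr1, Klrb1c and Eomes, which define NK cells, had 0, 1 and 7 counts in the floxed and 1, 7 and 6 counts in the control libraries.

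Genes of migration and egress were mostly higher. Of 21 tested, 15 rose and 2 fell (median log2 1.13), against 13% and 12% of all tested genes. The marker S1pr1 is one of the 15. Klf2, the transcription factor that drives S1pr1, rose to 229 and 256 CPM in floxed against 38.2 and 27.4 CPM in control libraries. The integrin genes Itgae and Itgb7, whose products pair into the receptor for E-cadherin, rose by 3.07 ± 0.36 and 2.04 ± 0.25 on the log2 scale. The thymic homing receptors Ccr9 and Cxcr4 were the 2 that fell: Ccr9 had 24.2 and 35.1 CPM in floxed against 124 and 133 CPM in control libraries, and Cxcr4 had 162 and 82.7 CPM in floxed against 331 and 304 CPM in control libraries.

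Lgals3 belongs to a list of galectins, annexins, S100 and cytoskeletal proteins in which 14 of 18 tested genes rose and 1 fell (median log2 1.59). S100a4 had 1923 and 2785 CPM in floxed against 458 and 347 CPM in control libraries, S100a6 had 831 and 1079 CPM in floxed against 181 and 133 CPM in control libraries, and the intermediate filament gene Vim had 1668 and 1893 CPM in floxed against 363 and 288 CPM in control libraries. Anxa2 (annexin A2) rose by 1.46 ± 0.09 on the log2 scale and was already higher on day 4, by 0.82 (adjusted p = 2.76e-05). It lies near Tcf12 on chromosome 9.

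Of 17 tested genes of STAT5 feedback and cytokine signalling, 9 rose and 4 fell (median log2 0.67). Cish, an inhibitor induced by STAT5, rose to 358 and 441 CPM in floxed against 119 and 101 CPM in control libraries, and Kit, the receptor of the stem cell factor in the medium, to 138 and 204 CPM in floxed against 26.1 and 16.2 CPM in control libraries. Bcl6, a repressor known to be lowered by STAT5, fell to 3.31 and 0.703 CPM in floxed against 18.7 and 20.6 CPM in control libraries. Of 17 immediate early and feedback genes 11 rose and 1 fell (median log2 1.12). Fos had 145 and 108 CPM in floxed against 15.9 and 5.81 CPM in control libraries, and Junb had 100.4 and 97.6 CPM in floxed against 29.9 and 23.1 CPM in control libraries. Such genes also respond to cell handling, and the part of sorting in these values was not tested.

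Of 24 tested genes of mitosis and replication 19 fell and none rose, with a median log2 change of -0.72. Mki67 had 179 and 193 CPM in floxed against 328 and 392 CPM in control libraries, and the spindle motor Kif11 had 45.6 and 51.5 CPM in floxed against 108 and 117 CPM in control libraries. The D cyclins went in opposite directions: Ccnd3 fell to 869 and 735 CPM in floxed against 1530.1 and 1506 CPM in control libraries, and Ccnd2 rose to 867 and 1130.0 CPM in floxed against 421 and 372 CPM in control libraries. The glycolysis list rose: 14 of 17 tested genes were higher and none lower (median log2 0.86). Slc2a3, a glucose transporter, had 225 and 95.6 CPM in floxed against 42.6 and 30.2 CPM in control libraries, and the lactate transporter Slc16a3 had 191 and 151 CPM in floxed against 54.0 and 40.8 CPM in control libraries. For Slc2a3 the floxed libraries differed from each other by more than the control libraries did, without reaching them.

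**Figure D3:**
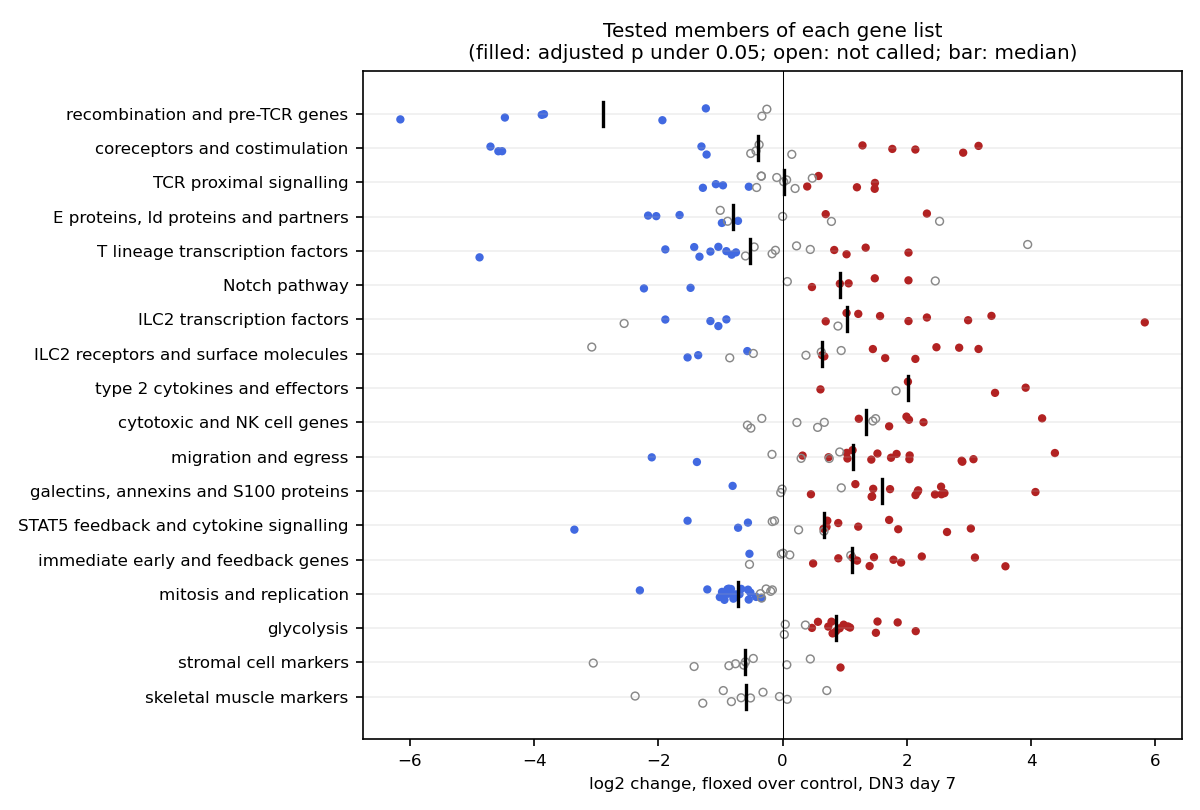
Log2 change in floxed over control DN3 cells on day 7 (horizontal axis) for the tested members of 18 gene lists (vertical axis), with filled points for genes called at an adjusted p under 0.05, open points for the rest and a black bar at each list's median. Recombination and pre-T cell receptor genes lie farthest to the left with a median of -2.89, and galectins, annexins and S100 proteins lie to the right with a median of 1.59.

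Markers of other cells were low and mostly not called. Stromal markers summed to 103 and 110.1 CPM in floxed against 80.7 and 92.4 CPM in control libraries, and of 10 tested only Pdgfrb was called, as higher. Myeloid markers summed to 45.8 and 61.2 CPM in floxed against 21.9 and 20.6 CPM in control libraries, with Ctss as the only called gene of 9 and Csf1r at 0 counts in floxed cells. Mast cell markers summed to 52.6 and 65.2 CPM in floxed against 20.4 and 12.3 CPM in control libraries, of which Cpa3 made 50.3 and 63.3 CPM in floxed and 17.2 and 10.1 CPM in control libraries, with Mcpt4, Fcer1a and Tpsb2 at 0 counts in all 4 libraries. B cell markers summed to 7.83 and 7.73 CPM in floxed against 12.3 and 12.5 CPM in control libraries. Skeletal muscle markers summed to 17.2 and 35.1 CPM in floxed against 24.6 and 43.8 CPM in control libraries, and none of 10 was called. The myeloid and mast cell sums moved with the genes that rose; the part of such cells in the results was not tested.

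The time of the changes was read from the same cultures on days 4 and 5, which share no library with day 7, although a letter may stand for one animal on all days. Before tamoxifen, 60 genes were called (0.412% of those tested; 27 higher, 0.185%, and 33 lower, 0.226%), of which 52 were called in the same direction on day 7. Among the 30 named genes, 1 of the 15 higher and 2 of the 15 lower differed on day 4. Gdpd3, a phosphodiesterase of lysophospholipids, had 28.0 and 31.5 CPM in floxed against 1.22 and 3.21 CPM in control libraries on day 4, and the change of its difference from day 4 to day 7 was not called (log2 0.88, adjusted p = 0.373). Spib and Fbp1 had log2 changes of -2.62 and -1.94 on day 4. The count of day 4 genes was 24 to 35 without any 1 of the 4 DN3 libraries of that day and 109 without the DN1 floxed library b of day 7. The genotype difference itself changed between day 4 and day 7 for 1809 genes (12.4%; 6.07% in the positive and 6.35% in the negative direction), which include 13 of the 15 higher and all 15 lower named genes, a count that rests on the day 7 libraries by which they were chosen. Day and sorting cannot be told apart in this change, since day 4 cells were not described as sorted. It was 1045 without floxed b and 957 without control d of day 7, and 1091, 1162 and 1141 without floxed b, control c or control d of day 4.

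On day 5, 1420 genes were called (9.75%; 659 higher and 761 lower). Of the 1890 genes higher on day 7, 401 were already higher on day 5 (21.2% of the day 7 genes and 60.8% of the day 5 genes), and of the 1750 lower genes 441 were lower on day 5 (25.2% and 58.0%). Named genes that fell had moved by day 5 in 11 of 15 cases (5.22% of all tested genes were lower on day 5) and named genes that rose in 7 of 15 (4.52% were higher). Ptcra and Nrp1 were already lower on day 5. The Nrp1 difference grew further from day 5 to day 7, by -2.82 ± 0.44 on the log2 scale (adjusted p = 0.000785). Ptcra had 6.29 and 4.86 CPM in floxed against 41.6 and 60.1 CPM in control libraries on day 5, after 27.3 and 18.3 CPM in floxed against 50.6 and 46.7 CPM in control libraries on day 4 (adjusted p = 0.121), and Nrp1 had 19.1 and 14.8 CPM in floxed against 46.3 and 53.7 CPM in control libraries. Among the higher genes, Rora had 20.2 and 38.0 CPM in floxed against 5.47 and 3.41 CPM in control libraries on day 5, and S1pr1 had 8.34 and 22.0 CPM in floxed against 2.27 and 3.13 CPM in control libraries.

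Rag1, Gzmb and Lgals3 came later. On day 5 Rag1 had 208 and 180.2 CPM in floxed against 237 and 404 CPM in control libraries (adjusted p = 0.215). Gzmb had 37.6 and 66.6 CPM in floxed against 22.7 and 29.3 CPM in control libraries on day 5 (adjusted p = 0.232), and Lgals3 had 7.38 and 17.0 CPM in floxed against 6.54 and 5.86 CPM in control libraries (adjusted p = 0.431). The difference grew from day 5 to day 7 by -5.43 ± 0.57 for Rag1, by 3.17 ± 0.67 for Gzmb and by 3.10 ± 0.86 for Lgals3 on the log2 scale (adjusted p = 4.17e-05, 0.00753 and 0.0342). The Lgals3 call was lost without floxed b of day 7 (log2 2.95, adjusted p = 0.102), control c (3.42, 0.0527) or control d of day 7 (2.82, 0.117), floxed a (2.61, 0.116), control c (3.04, 0.132) or control d of day 5 (3.17, 0.112), or without the day 4 libraries (3.07, 0.0737). Control cells moved too: Gzmb was at 22.7 and 29.3 CPM on day 5 and at 192 and 134 CPM on day 7 in controls. In all, the difference changed between day 5 and day 7 for 1053 genes (7.23%; 540 or 3.71% in the positive and 513 or 3.52% in the negative direction), and this count was 390, 556 and 446 without floxed b, control c or control d of day 7, 566, 622 and 519 without floxed b, control c or control d of day 5, and 1643 without the DN1 floxed library b.

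Most genes kept their direction between the days. Of 878 genes called on both day 5 and day 7, 36 had opposite signs (4.10%). Among the members of the gene lists these were Id2 and Ldha. Id2 had 36.2 and 39.3 CPM in floxed against 113 and 100.1 CPM in control libraries on day 5, a log2 change of -1.49 ± 0.21, so it was below the controls on day 5 and above them on day 7 (change of the difference 2.19 ± 0.29, adjusted p = 0.000328). Tcf12, one of the targeted genes, had log2 changes of -0.68 on day 5 and -1.66 on day 7.

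**Figure D4:**
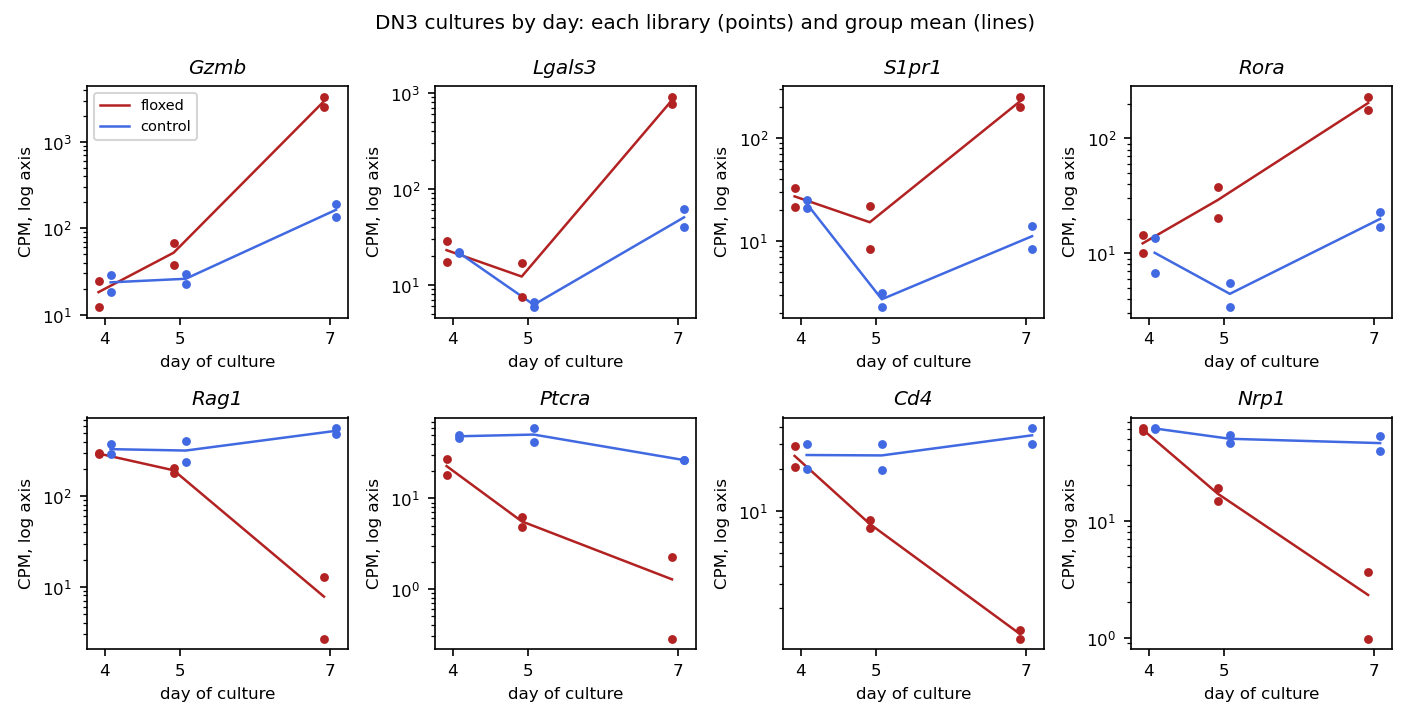
CPM on a log axis of 8 genes in DN3 cultures on days 4, 5 and 7, with points for libraries and lines for group means, floxed in red and control in blue. Red and blue points mix on day 4 for 7 of the genes, Ptcra being the exception, and they do not overlap for any of the 8 on day 5, with Rag1, Gzmb and Lgals3 close on day 5 and far apart on day 7.

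Cultures of DN1 cells, the stage before T cell commitment, were made with the same genotypes. The labels of their day 7 libraries give day 7 as the day of tamoxifen, where those of DN3 cells give day 4 and the series' design text gives day 4 for both. If the DN1 labels hold, precursor and time since tamoxifen cannot be told apart in what follows. In DN1 cultures of day 7, 3284 genes were called (22.5%; 1780 higher and 1504 lower). Of the genes higher in DN3 cells, 846 were higher in DN1 cells (44.8% of the DN3 genes and 47.5% of the DN1 genes), and of the lower genes 601 were lower in both (34.3% and 40.0%). Of the named genes, 13 of the 15 higher and 10 of the 15 lower were called in the same direction in DN1 cells, where 12.2% of all tested genes were higher and 10.3% lower. Gzmb had 352 and 430.2 CPM in floxed against 44.3 and 27.9 CPM in control libraries of DN1 cultures, and Rora had 604 and 558 CPM in floxed against 52.0 and 44.7 CPM in control libraries. The muscle gene Acta1 had 13.4 and 1867 CPM in floxed DN1 libraries a and b against 1.89 and 2.08 CPM in DN1 controls. In DN3 cultures of day 7 Acta1 had 2.78 and 6.19 CPM in floxed against 1.40 and 7.54 CPM in control libraries.

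The response differed between DN3 and DN1 cells for 1151 genes (7.90%; 587 or 4.03% with the higher value in DN3 cells and 564 or 3.87% in DN1 cells), including 4 of the 15 higher and 5 of the 15 lower named genes, which were chosen on the same DN3 libraries. This count was 3029 without DN1 floxed a, 633 and 621 without DN1 control c or d, and 590, 744 and 488 without DN3 floxed b, control c or control d. Scin and Deptor rose in DN3 cells, while both were lower in floxed than in control DN1 libraries, a fall not called for either. Deptor had 111 and 113 CPM in floxed against 158 and 152 CPM in control DN1 libraries, a log2 difference between the responses of 3.96 ± 0.36 (adjusted p = 2.6e-06). Scin had 53.8 and 10.1 CPM in floxed against 69.4 and 63.8 CPM in control DN1 libraries, and the difference was 5.76 ± 0.72 (adjusted p = 8.31e-05). The lower gene Akap12 had 1.93 and 4.84 CPM in floxed against 6.15 and 5.26 CPM in control DN1 libraries, a difference of -3.40 ± 0.44 (adjusted p = 0.000119), and Cd4 had under 2 CPM in all 4 DN1 libraries, where a fall could not have been seen. For S1pr1 the response was larger in DN3 cells by 2.36 ± 0.62 (adjusted p = 0.0234), which was lost without DN1 control c (2.19, adjusted p = 0.13) or d (2.51, 0.0641), floxed b (2.18, 0.0787) or control d of DN3 (2.02, 0.121), or without the day 4 libraries (2.34, 0.051).

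A set of genes went in opposite directions in the 2 precursors. Of 1544 genes called on day 7 in both, 97 had opposite signs (6.28%). Among the 119 list members called in both, 13 did. Of these, Gzma, Hes1, Nrarp, Bhlhe40, Pim1, Dusp5, Stat4, Socs2, Lcp2 and Tcrg-C2 rose in DN3 and fell in DN1 cells, and Pdcd1 and Tox2 fell in DN3 and rose in DN1 cells. They were picked out after their values were seen. Gzma had 639.6 and 392 CPM in floxed against 1397 and 1358 CPM in control DN1 libraries, a difference between the responses of 2.64 ± 0.25 (adjusted p = 3.08e-06). The Notch target Nrarp had 18.5 and 18.1 CPM in floxed against 49.1 and 43.4 CPM in control DN1 libraries (difference 2.40 ± 0.29, adjusted p = 5.31e-05), and Hes1 had 84.0 and 37.2 CPM in floxed against 148 and 151 CPM in control DN1 libraries (difference 2.22 ± 0.32, adjusted p = 0.000326). Of the Notch list, 5 of 9 fell and 1 rose in DN1 cells, against 2 that fell and 5 that rose in DN3 cells. Bhlhe40, a helix-loop-helix repressor, and Pim1, a kinase induced by STAT5, differed by 2.16 ± 0.21 and 2.0 ± 0.30. For Lcp2, Tcrg-C2, Pdcd1, Tox2, Socs2 and Stat4 the day 7 call in DN3 cells was lost with at least 1 library left out (adjusted p between 0.0515 and 0.221), and reads of Tcrg-C2 may be shared with its near copy Tcrg-C1.

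**Figure D5:**
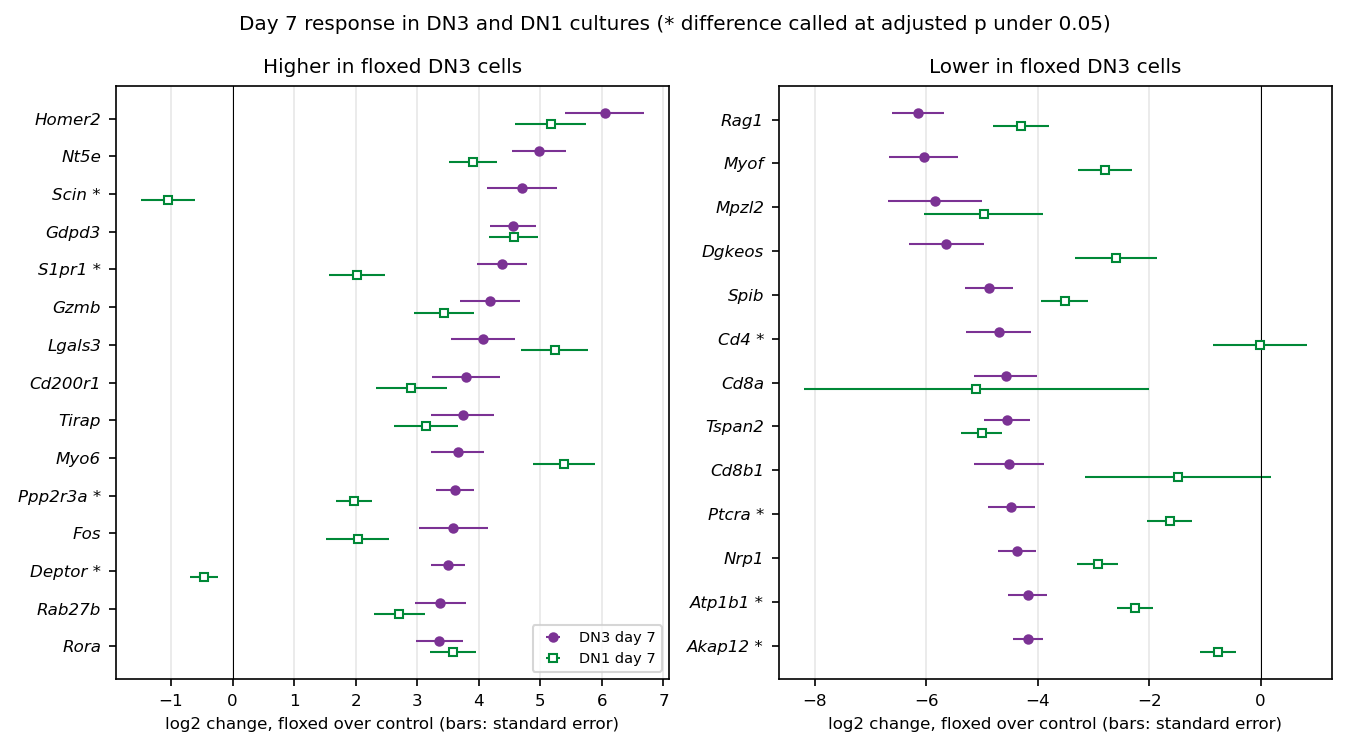
Log2 change in floxed over control cells on day 7 in DN3 (filled circles) and DN1 cultures (open squares) for 28 of the named genes, with bars for the standard error and an asterisk where the difference between the responses was called. Fbp1 is left out because it had no count in floxed DN3 cells. Cd8a had 0 counts in floxed against 9 counts in control DN1 libraries, so the size of its DN1 change depends on the prior count. Gzmb, Gdpd3, Rora and Tspan2 lie close together in both precursors, while Scin, Deptor, Cd4 and Akap12 lie apart.

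Libraries of one genotype differed from each other among the called genes. Of the 1750 genes lower in floxed cells, 61.3% had the higher CPM in floxed a than in floxed b, against 47.5% of genes that were not called. Of the 1890 higher genes, 63.4% had the higher CPM in floxed b, against 48.2% of genes that were not called. The median log2 difference of a over b was 0.07 for the lower genes, -0.08 for the higher genes and 0 for the rest. Control c over control d gave medians of a like size, -0.06 for the lower genes, 0.08 for the higher genes and 0 for the rest. Rag1, Ptcra, Dntt, Notch3 and Nrp1 each had at least 3-fold more CPM in floxed a than in floxed b, and Tcf3 had 32.9 CPM in a and 15.04 CPM in b.

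Thymic ILC2 isolated directly from mice with floxed E2A and HEB and a plck-Cre transgene were sequenced in the same table and give a point of orientation without a test, since tissue, Cre and library makeup all differ. Values here are CPM of the counts outside the mitochondrial genome. Rora had 175 and 228 CPM in floxed DN3 cultures and 399 and 632 CPM in the thymic ILC2, and Icos had 246 and 353 CPM in floxed DN3 cultures and 238 and 357 CPM in the thymic ILC2. Gzmb had 2546 and 3295 CPM in floxed DN3 cultures and no count in either thymic ILC2 library. Lgals3 had 765 and 908 CPM in floxed DN3 cultures and 4.64 and 2.85 CPM in the thymic ILC2. Rag1 had 12.8 and 2.64 CPM in floxed DN3 cultures and 131 and 134 CPM in the thymic ILC2. S1pr1 had 202 and 250 CPM in floxed DN3 cultures and 27.8 and 30.9 CPM in the thymic ILC2. Gata3 had 642 and 683 CPM in the cultures and 205 and 333 CPM in the thymic ILC2. Zbtb16 had 5.90 and 2.77 CPM in the cultures and 9.74 and 6.18 CPM in the thymic ILC2. Il13 had 5.21 and 13.5 CPM in the cultures and 0.464 and 0 CPM in the thymic ILC2. Of these genes, the cultured cells were nearest the isolated cells for Icos and far from them for Gzmb, Lgals3, S1pr1 and Rag1.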

How the data were processed

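RNA-seq counts per gene were taken as deposited: the authors' whole-number counts for 26 thymus libraries, made with mm10 as genome build, per the submitters' processing notes, which also name DESeq2. The aligner and counter were not given in the sources used here, nor was the use of strand. Gene positions came from the GENCODE annotation of the same build. All 24 culture libraries (12 groups of 2) were fitted together in edgeR 4.0.16 (R 4.3.3) with TMM scaling, a minimum count of 10 in filterByExpr and the quasi-likelihood test. This left 12 residual degrees of freedom. P-values were adjusted by Benjamini-Hochberg over 15172 genes, and 14570 on chromosomes 1 to 19 are reported, with an adjusted p under 0.05 as the threshold. DESeq2 1.42.0, RLE scaling, no filter, the compared groups alone and left-out libraries were alternatives. The comparisons of day 5 and of DN1 cells alone were added after the data were seen. A standard error is the log2 change divided by the square root of F. Named genes were the 15 with the largest change in each direction among called genes with a mean of at least 20 CPM in the higher group and libraries that do not overlap. A few genes that meet these rules are not reported here. Members and gene lists were chosen with earlier results of these data known. The fit was tested on simulated data with 200 changed genes. Intervals and the floor of 3 counts cover counting error only. Promoters are from RefSeq.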

Additional observations from a re-analysis of the deposited data

Results flagged for a closer look

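The genotype difference in DN3 cells changed between days or differed from that in DN1 cells for the genes below, by a test of the difference itself in edgeR's fit. Groups of 2 libraries allow no check for a library far from the others. All values are differences of log2 changes, floxed over control, and most genes were chosen on the DN3 libraries of day 7, which enter each difference.

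From day 4 to day 7 the difference changed by 4.55 for Gzmb, 3.98 for Lgals3, 4.16 for S1pr1 and -5.99 for Rag1. From day 5 to day 7 it changed in the positive direction by 3.17 for Gzmb, 3.10 for Lgals3, 3.41 for Ppp2r3a, 1.92 for Deptor, 2.19 for Id2 and 1.08 for the lactate dehydrogenase gene Ldha. It changed in the negative direction for the recombinase gene Rag1 (-5.43), the coreceptor genes Cd8b1 (-4.48), Cd8a (-3.78) and Cd4 (-3.08), and for Dgkeos (-3.68), Tspan2 (-3.28), Akap12 (-2.93), Nrp1 (-2.82), Spib (-2.70), Atp1b1 (-2.33) and Tcf12 (-0.98). Some of these calls did not hold under every alternative, with edgeR's adjusted p unless DESeq2 is named. The Lgals3 call was lost without the day 4 libraries (0.0737) and with several single libraries left out, as given above. The Cd4 call was lost without floxed a (adjusted p = 0.0543) or control c of day 5 (0.0688), or without floxed a (0.0665), floxed b (0.0968) or control d of day 7 (0.0723). The Dgkeos call was lost under DESeq2 (adjusted p = 0.133) and without control d of day 5 (0.0522), floxed b (0.126) or control d of day 7 (0.06). The Spib call was lost without floxed a (0.0776) or control d of day 5 (0.0549), or without floxed b (0.0885) or control d of day 7 (0.0537). The Deptor call was lost without control d of day 5 (0.097), floxed b (0.0692) or control c of day 7 (0.06). Atp1b1 lost its call without floxed b of day 7 (0.0669) and Cd8a under DESeq2 (0.0686).

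Between DN3 and DN1 cells on day 7, DN3 minus DN1, the response was larger in the positive direction for Scin (5.76), Deptor (3.96), Gzma (2.64), Nrarp (2.40), S1pr1 (2.36), Hes1 (2.22), Bhlhe40 (2.16), Pim1 (2.0), Dusp5 (1.83), Stat4 (1.70), Ppp2r3a (1.65), Socs2 (1.36), Tcrg-C2 (1.05) and Lcp2 (0.70). It was more negative in DN3 cells for Cd4 (-4.69), Tox2 (-3.83), Akap12 (-3.40), Pdcd1 (-3.15), Ptcra (-2.84) and Atp1b1 (-1.93). The S1pr1 call was lost without the day 4 libraries (adjusted p = 0.051) and with several single libraries left out, as given above. With the compared groups alone the calls were lost for Ptcra (adjusted p = 0.0909), Atp1b1 (0.0849), Ppp2r3a (0.0665) and Lcp2 (0.0643). Ptcra was also lost without DN1 floxed b (0.0935) or DN3 floxed b (0.059). Atp1b1 was also lost without DN1 floxed a (0.0704), DN1 control d (0.0787), DN3 floxed b (0.159), DN3 control c (0.0501) or DN3 control d (0.0659). Ppp2r3a was also lost without DN1 control c (0.0539), DN1 control d (0.0891), DN3 floxed b (0.082), DN3 control c (0.0852) or DN3 control d (0.079). The labels give different days of tamoxifen for the DN1 and DN3 libraries, so precursor and time since tamoxifen cannot be told apart if they hold. The part of the muscle RNA in DN1 floxed library b in these differences was not tested gene by gene; without that library 940 genes differed, against 1151 with it.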

How the results depend on the processing

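The 30 named genes kept their direction and their call on day 7 in all 330 values recomputed under the alternatives, and of 137 genes examined on day 7, 114 did so. The 30 named genes were chosen for large changes in the same day 7 libraries, so that they kept their calls says little about how firm they are. On day 7, 3353 genes were called by DESeq2, 3646 with RLE scaling, 3557 without a filter and 4173 with the 4 libraries alone. Leaving out 1 library gave 2075 to 4321 called genes, 1029 to 2176 higher and 1032 to 2145 lower. For the change from day 4 to day 7 the range was 957 to 2387, for the change from day 5 to day 7 390 to 1643, for the difference between DN3 and DN1 cells 488 to 3029, and for day 4 alone 24 to 109. Without a filter, 1841 genes differed between DN3 and DN1 cells and 240 on day 4; with the compared groups alone 363 differed between DN3 and DN1 cells. The cause was not tested. Libraries with the same letter on different days correlated in their deviations by 0.12 to 0.14 in floxed and by -0.05 to -0.02 in control cells; not every pair was over 0.1, so the letters were not taken to pair the libraries. With the letter as a replicate block, 1700 genes changed from day 4 to day 7 and 997 from day 5 to day 7, against 1809 and 1053 without it. The genotype contrast of day 7 has no such block, since floxed and control libraries carry different letters. With 2 libraries per group, sex going with genotype and few reads for the lowest genes, small changes and large folds near 0 counts are poorly measured.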

Other observations

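On day 4, before tamoxifen, some genes already differed between floxed and control DN3 cultures, and these values bear on how the same genes are read on day 7. Of 67 tested genes within 5 Mb of Tcf12, 3 were called on day 4 (4.48%; Anxa2, Mns1 and Myzap), against 0.412% of all tested genes, and near Tcf3 it was 1 of 198 (0.505%). Napsa, an aspartic protease gene on chromosome 7, had 0.544 and 2.25 CPM in floxed against 27.1 and 27.9 CPM in control libraries on day 4. Of the 60 genes called on day 4, 26 had the symbol of a pseudogene or predicted gene.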
